A study of Homo sapiens with 4 samples.

Results

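The chromatin profile of cells treated with the CDK4/6 inhibitor PD0332991 (palbociclib) was set directly beside that of cells given an siRNA against RB, both in the established human prostate cancer line 22RV1. Profiles came from CUT&Tag, and the members described here are the summits that both treated libraries listed on chromosomes 1 to 22, X and Y. A summit is the highest position of a deposited interval, and 2 summits, 1 from each library, formed a pair when they were mutually nearest and no more than 250 bp apart. There were 766 such pairs, of 3206 listed summits under the inhibitor and 2553 after RB siRNA, and 654 of them reached a geometric mean of 5 fragments per 1000000 (FPM). The 4 libraries together listed 25891 summits. The groups were cells treated with PD0332991, the control of that treatment, cells given the siRNA against RB and the control of the siRNA, each in 22RV1 and each with 1 library. The sources used here give no dose, treatment time, siRNA sequence or antibody target. The labels' protocols describe formaldehyde-fixed, sonicated chromatin with input and precipitated material, which differs from CUT&Tag on unfixed cells.

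CDK4 and CDK6, with their D-type cyclins, phosphorylate RB and release E2F transcription factors, which switch on the genes of DNA replication and the cell cycle. Palbociclib blocks these kinases and keeps RB in its active, hypophosphorylated form, whereas an siRNA against RB removes the protein itself. The 2 treatments therefore push the pathway in opposite directions, and palbociclib depends on RB for its arrest of the cell cycle. The direct comparison asks where in the genome the treated profiles differ. The 2 treatments belong to 2 experiments with separate controls, so the difference between experiments is part of every direct ratio, and the difference of the 2 control libraries is given beside it as the background.

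Levels were the treatment fragments at a summit, recovered from the authors' deposited fold and p, per 1000000 treatment fragments of the library. The recovered totals were 1909343 fragments under the inhibitor, 2423282 after RB siRNA, 2458773 in the control of the inhibitor and 3479676 in that of the siRNA. A level of 5 FPM stood for 9.55 to 17.4 fragments. Median interval widths were 557 and 718 kb in the treated libraries and 189 and 180 kb in the controls. No library listed a summit within 1000 bp of an end of RB1. The interval lists hold no measure of RB RNA or protein, so the knockdown could not be checked. Of 22 prostate lineage genes, 3, 1, 2 and 4 had a summit at an end (inhibitor, RB siRNA, inhibitor control, siRNA control). Of 12 neuroendocrine genes 0, 1, 2 and 1 had one, and of 15 blood, endothelial and liver genes 1, 0, 0 and 0. In the same order, 7.73%, 6.63%, 16.8% and 17.3% of all 20037 protein-coding genes had one. Lists this small give no check of lineage. With a single library in each group there was no replicate spread to set a difference against, and p-values were not computed. Intervals are at 95% and cover counting error only.

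Shared summits were common at gene ends and starts, and so were the summits of each treated library as a whole. Of the 654, 428 (65.4%) were within 1000 bp of an end of a protein-coding gene. The pairing rule keeps paired summits within 250 bp, and their median distance was 31 bp, while 410 pairs (62.7%) lay within 50 bp of each other. Starts were listed for 15842 of 20037 protein-coding genes, with none on chromosome 8. Within 1000 bp of a listed start lay 398 inhibitor summits and 399 RB siRNA summits. Their median position from the start was -131.5 bp (negative is upstream) under the inhibitor and -128 bp after RB siRNA, with 80.7% and 81.2% on the upstream side. The upstream summits were 321 and 324 of all 654. Since pairs were chosen by distance, positions in the 2 libraries are close by the choice of members.

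**Figure D1:**
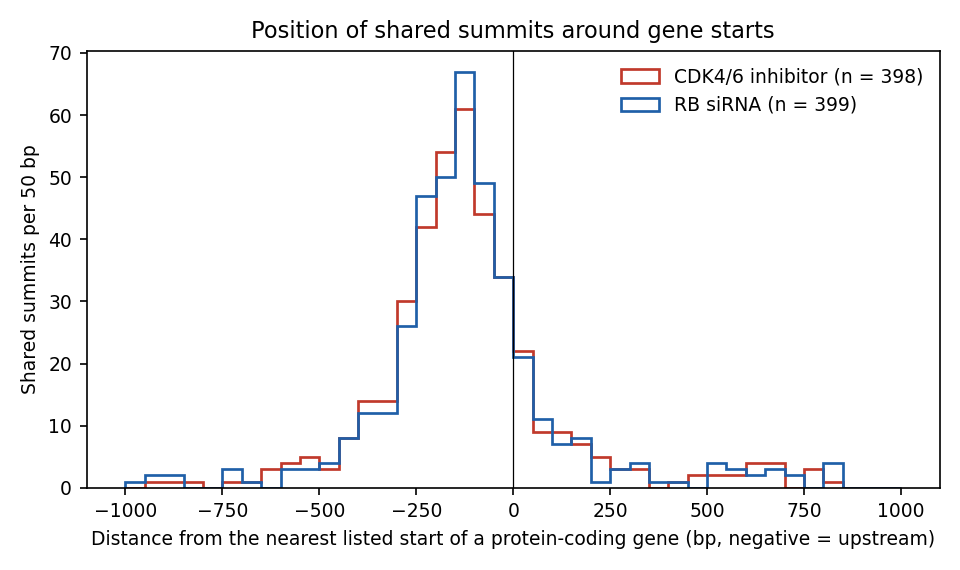
Shared summits by distance from the nearest listed start of a protein-coding gene (x axis, bp, negative upstream) and number per 50 bp (y axis), for the CDK4/6 inhibitor (n = 398) and RB siRNA (n = 399). Both outlines peak upstream of the start, with medians of -131.5 and -128 bp.

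The 6 promoters printed here held from 68% (GUCD1) to 81.6% (RAD21L1) G and C, and windows near a shared summit were GC-rich whatever their call (below). Shown are the 250 bases before the start of 6 genes. Their shared summits, described below, lay beyond counting error of the general ratio of the 2 libraries. Of the 6, 3 were higher under the inhibitor (ATP2B1, IQUB, RAD21L1) and 3 higher after RB siRNA (LMNB1, GUCD1 and EGLN1). The 6 were not the farthest of all, since SCLY and LOC124905352, among others, lay farther from that ratio than some of them. Sequences are from RefSeq on GRCh38.p14, read 5′ to 3′ on the strand of the gene, and capitals mark matches on either strand to a GC box (GGGCGG), an ETS core (CCGGAA) or a CCAAT box (CCAAT).
ATP2B1 (chr12:89709367-89709616, strand -): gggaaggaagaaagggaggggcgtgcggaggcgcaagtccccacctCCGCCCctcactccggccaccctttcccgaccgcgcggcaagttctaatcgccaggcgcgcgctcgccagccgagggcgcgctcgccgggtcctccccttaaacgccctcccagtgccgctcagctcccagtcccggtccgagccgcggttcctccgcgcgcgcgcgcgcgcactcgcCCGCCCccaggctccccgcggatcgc
IQUB (chr7:123534596-123534845, strand -): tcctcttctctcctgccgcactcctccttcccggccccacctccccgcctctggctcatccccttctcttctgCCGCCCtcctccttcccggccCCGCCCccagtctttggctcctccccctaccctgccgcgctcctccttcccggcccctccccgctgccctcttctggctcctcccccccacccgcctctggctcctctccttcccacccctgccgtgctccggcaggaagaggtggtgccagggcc
RAD21L1 (chr20:1225794-1226043, strand +): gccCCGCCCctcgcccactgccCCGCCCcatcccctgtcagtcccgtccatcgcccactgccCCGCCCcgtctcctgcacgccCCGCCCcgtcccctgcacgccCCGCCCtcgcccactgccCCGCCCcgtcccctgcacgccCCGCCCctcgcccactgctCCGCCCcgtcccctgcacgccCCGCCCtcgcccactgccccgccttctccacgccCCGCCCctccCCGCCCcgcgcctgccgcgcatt
LMNB1 (chr5:126776886-126777135, strand +): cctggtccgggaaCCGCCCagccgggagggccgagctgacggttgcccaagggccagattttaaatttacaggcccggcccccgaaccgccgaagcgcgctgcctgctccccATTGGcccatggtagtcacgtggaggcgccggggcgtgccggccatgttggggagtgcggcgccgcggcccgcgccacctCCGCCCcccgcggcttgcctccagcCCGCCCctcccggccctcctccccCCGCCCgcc
GUCD1 (chr22:24555139-24555388, strand -): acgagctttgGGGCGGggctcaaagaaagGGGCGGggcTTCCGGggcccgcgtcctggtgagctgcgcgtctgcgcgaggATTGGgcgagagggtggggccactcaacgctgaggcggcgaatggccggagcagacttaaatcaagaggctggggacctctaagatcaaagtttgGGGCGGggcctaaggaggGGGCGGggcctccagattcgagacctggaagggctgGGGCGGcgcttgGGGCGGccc
EGLN1 (chr1:231422288-231422537, strand -): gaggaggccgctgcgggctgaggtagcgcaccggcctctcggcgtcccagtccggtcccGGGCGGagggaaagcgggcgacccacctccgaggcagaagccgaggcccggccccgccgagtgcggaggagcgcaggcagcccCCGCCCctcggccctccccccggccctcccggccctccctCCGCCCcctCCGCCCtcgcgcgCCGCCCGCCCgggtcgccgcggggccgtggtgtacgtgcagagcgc
The window of RAD21L1 held 11 GC boxes, a number reached by 19 of 22183 such windows (0.0857%). ATP2B1 and IQUB held 2 each, LMNB1 held 4, and GUCD1 and EGLN1 held 6 each. The summits of ATP2B1 lay 250 bp upstream of the start in both libraries, and those of RAD21L1 lay 125 and 157 bp upstream (inhibitor, RB siRNA). In the same order, the summits of LMNB1 lay at -292 and -90 bp from the printed start (negative is upstream). Those of EGLN1 lay at 226 and -17 bp. The inhibitor summit thus lay outside the printed bases at LMNB1 and EGLN1, and by a few bases at IQUB. At LMNB1 the inhibitor summit was nearest to another listed start of the gene, 221 bp downstream of it. The RB siRNA summit lay inside the printed bases at all 6 genes.

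Motifs were read in windows of 300 bases around each listed start. A window counted as one with a shared summit when its start lay within 1000 bp of the middle of the pair. The summit itself could lie outside the 300 bases. Of the summits within 1000 bp of a listed start, 64.6% (inhibitor) and 67.2% (RB siRNA) lay inside them. The GC box was found in 88.4% of the 455 windows with a shared summit and in 56.3% of all 22183 windows. The GC box was present in 37 of 39 windows with a summit higher under the inhibitor, in 32 of 37 with one higher after RB siRNA, and in 333 of 379 with one within counting error. The CCAAT box was found in 43.1% of the windows with a shared summit and 34.7% of all windows, and the ETS core in 27.3% and 21.2%. Median GC content was 69.3% in the windows with a shared summit and 62.3% in all windows. By call it was 72% (higher under the inhibitor), 72.3% (higher after RB siRNA) and 69% (within counting error). These motifs and the base composition move together, and their separate parts were not tested. A short E2F site (TTTCCCGC) was in 2.42% of the windows with a shared summit and 1.99% of all. It was in 2 of 39 windows with a summit higher under the inhibitor and in 2 of 37 with one higher after RB siRNA. The second form (TTTGGCGC) was in 0.659% and 0.816% and the cAMP response element (TGACGTCA) in 3.96% and 2.26%. All motifs were searched on both strands, no motif's letters lie wholly within another's, and matches of different motifs can overlap in part. A match describes letters in a window and is not a bound site.

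The inhibitor library was higher at most shared summits, but the size of this general shift depends on scaling. The median log2 ratio of inhibitor to RB siRNA was 0.40 (0.34 to 0.46), and 526 of 654 summits had more FPM under the inhibitor. Scaled to the summed fragments of summits found in all 4 libraries, the median was -0.093. The 2 controls had a median log2 ratio of 0.59 in the same direction over 1191 shared summits. Single summits are therefore described below by their ratio against the median shift, and "higher under the inhibitor" and "higher after RB siRNA" mean that the interval of the ratio excludes that shift.

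Against this shift, 86 summits (13.1%) were higher under the inhibitor and 56 (8.56%) were higher after RB siRNA, together 142 of 654 (21.7%, interval 18.6 to 25.1). The control libraries, which carry neither treatment, differed at 242 of 1191 shared summits (20.3%), 142 (11.9%) higher in the inhibitor control and 100 (8.4%) higher in the siRNA control. The interval of that share, 18.1 to 22.7, overlaps the interval of the treated libraries. At gene ends the treated libraries differed at 66 of 428 (15.4%), 38 higher under the inhibitor (8.88%) and 28 after RB siRNA (6.54%), and the controls at 123 of 805 (15.3%), 65 (8.07%) and 58 (7.2%). Away from gene ends they were 33.6% (76 of 226) and 30.8% (119 of 386). Only 34 of the 654 (5.20%) lay more than 2-fold from the shift, 27 of them beyond counting error.

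**Figure D2:**
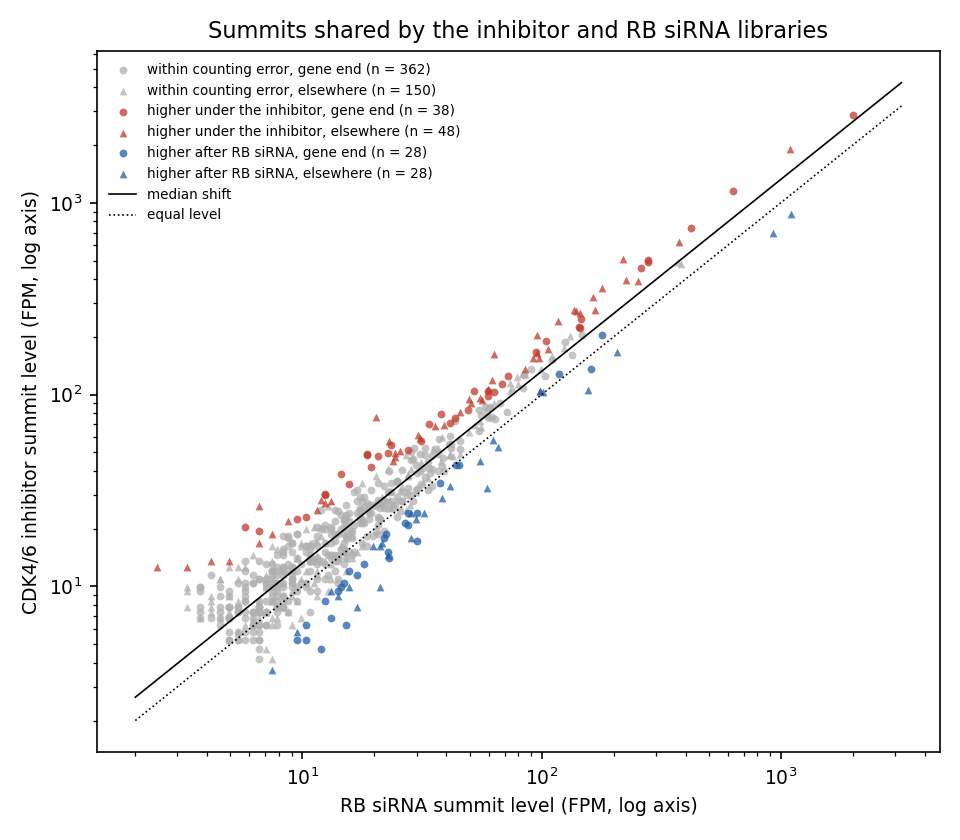
Levels of the 654 shared summits after RB siRNA and under the inhibitor (both axes in FPM, log scale), with each point 1 summit coloured by whether its interval excludes the median shift. The 86 summits higher under the inhibitor and the 56 higher after RB siRNA lie on either side of the line of the median log2 ratio of 0.40.

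What could be called depended on the level. From 5 to 10 FPM, 6.28% of 191 summits were beyond counting error. The share was 16.8% of 197 from 10 to 20 FPM, 22.6% of 164 from 20 to 50, 42.6% of 47 from 50 to 100 and 72.7% of 55 at 100 FPM or more. The control libraries gave 10.1%, 16.6%, 26.7%, 56.2% and 73.1% over the same levels. The direct ratio itself also rose with the level, from a median log2 of 0.34 at 5 to 10 FPM to 0.64 at 100 FPM or more, and the ratio of the controls rose from 0.43 to 0.98. At 100 FPM or more, 30 summits were higher under the inhibitor and 10 after RB siRNA, while at 5 to 10 FPM the counts were 4 and 8. Without the pairs of 100 FPM or more, 16.7% lay beyond counting error.

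**Figure D3:**
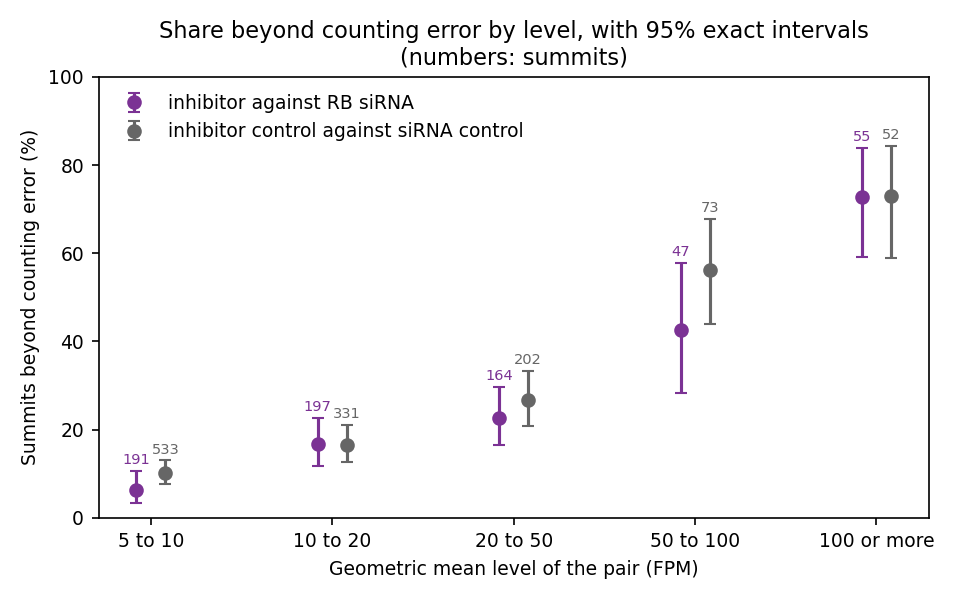
Share of shared summits beyond counting error (y axis, %) by the geometric mean level of the pair (x axis, FPM), for the inhibitor against RB siRNA and for the inhibitor control against the siRNA control. Bars are exact 95% binomial intervals and the numbers are summits, and the treated pair and the control pair overlap at every level.

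Several of the genes with a summit higher under the inhibitor had levels of 19.4 to 79.6 FPM in that library. ATP2B1, the gene of a plasma membrane calcium pump whose promoter is printed above, had 48.7 FPM under the inhibitor and 18.6 after RB siRNA (93 and 45 fragments), with 26.8 and 21.0 in the inhibitor and siRNA controls, a log2 ratio of 1.39 (0.86 to 1.94). IQUB, which encodes a ciliary protein, had 38.8 and 14.4 FPM with 25.2 and 16.1 in the controls (log2 ratio 1.42, 0.83 to 2.05). At both genes the inhibitor library stood highest of the 4, and the RB siRNA library was the lowest.

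The same order, with the inhibitor library highest and the RB siRNA library lowest, held at ICE1, a subunit of the complex for transcription of small nuclear RNA genes, with 19.4, 6.603, 11.8 and 8.33 FPM (inhibitor, RB siRNA, inhibitor control, siRNA control). The log2 ratio at ICE1 was 1.55 (0.67 to 2.50). RAD21L1, which encodes a cohesin subunit of meiosis and has the promoter with 11 GC boxes, had 54.5 and 23.5 FPM with 36.6 and 21.6 in the controls (log2 ratio 1.21, 0.73 to 1.70). TNRC18 had 47.7 and 20.6 FPM with 24.8 and 19.0 in the controls. At RAD21L1 and TNRC18 the inhibitor library was again the highest, and the other 3 libraries stood closer together at TNRC18 than at RAD21L1. PITRM1, a mitochondrial protease gene, had 79.6 and 38.0 FPM with 54.9 and 33.9 in the controls (log2 ratio 1.07, 0.69 to 1.46). LOC124905352 had the largest log2 ratio at a gene end, 1.82 (0.91 to 2.82), from 20.4 and 5.78 FPM (39 and 14 fragments) and summits 166 bp apart.

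Of the 8 highest summits at gene ends, 7 were higher under the inhibitor, 5 of them at genes where the controls differed in the same way, and 1 was higher after RB siRNA. CIMAP1D, the highest shared summit at a gene end, had 2882 FPM under the inhibitor and 2007 after RB siRNA, with 2225 and 1077 in their controls. Its log2 ratio of 0.52 (0.47 to 0.58) lay 0.12 above the shift, but under the median of 0.64 for pairs of 100 FPM or more. The call of CIMAP1D was lost at a minimum of 20 FPM (0.036 against the shift, -0.020 to 0.092). WDR27 had 738 and 421 FPM with 545 and 242 in the controls, BRD3OS 490 and 279 with 386 and 144, the mucin gene MUC8 457 and 260 with 449 and 119, and the apoptotic caspase gene CASP9 248 and 146 with 205 and 82.8. In all 5 the control of the inhibitor exceeded the control of the siRNA by more than the shift of the controls, beyond counting error. TMEM87B differed in this respect, with 504 and 280 FPM and with 234 and 197 in the controls, which lay below the shift of the controls. FARP2, an exchange factor gene for small GTPases, had 1148 and 631 FPM and 403 in the siRNA control, and its summit was not listed in the inhibitor control. LOC124905351, the 1 on the other side, had 205 and 179 FPM with 204 and 52.3 in the controls. Its log2 ratio of 0.20 (-0.00047 to 0.40) was -0.20 against the shift, with the controls apart in the opposite direction, and the call was lost with pairing within 500 bp, with no minimum level or with all contigs.

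The summits higher after RB siRNA included those of genes for the nuclear lamina, oxygen sensing and the spliceosome core, and 11 of the 12 named here had at most 30.1 FPM in either treated library, with LOC124905351 above this level as well. LMNB1, which encodes lamin B1 of the nuclear lamina and is repressed when cells enter senescence, had 6.28 FPM under the inhibitor and 15.3 after RB siRNA (12 and 37 fragments). The inhibitor control had 13.8 and the siRNA control 10.6. The log2 ratio was -1.28 (-2.36 to -0.31), the inhibitor library was the lowest of the 4 and the RB siRNA library the highest, and the paired summits lay 202 bp apart. EGLN1, the gene of the prolyl hydroxylase that marks HIF-alpha for degradation, had 5.24 and 10.3 FPM, 243 bp apart, with 9.20 in the siRNA control (log2 ratio -0.98, -2.20 to 0.13).

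SNRPD3, a core protein of the spliceosomal particles, shares its summit with the start of GUCD1, and the 2 cannot be told apart. That summit had 14.1 FPM under the inhibitor and 23.1 after RB siRNA (27 and 56 fragments), with 17.1 and 9.48 in the controls, a log2 ratio of -0.71 (-1.43 to -0.02). RB siRNA stood highest there. CHRAC1, a histone-fold subunit of a chromatin remodeller, had 17.3 and 30.1 FPM with 13.4 and 15.2 in the controls (log2 ratio -0.80, -1.44 to -0.19), and RB siRNA again stood above the other 3 libraries. RAB22A, a small GTPase of early endosomes, had 20.9 and 27.6 FPM with 18.3 and 5.46 in the controls (log2 ratio -0.40, -1.003 to 0.19). SCLY, selenocysteine lyase, had the lowest log2 ratio at a gene end, -1.34 (-2.61 to -0.23), from 4.71 and 11.97 FPM (9 and 29 fragments) at its 3′ end. The siRNA control had 5.17 FPM at SCLY, and the inhibitor control had no matching summit at SCLY or EGLN1.

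MXD3, which encodes a MAX partner that opposes MYC and is expressed in proliferating cells, had 15.2 FPM under the inhibitor and 22.7 after RB siRNA (29 and 55 fragments) at the same base in both libraries. Its controls had 31.7 (inhibitor control) and 9.77 FPM (siRNA control). The log2 ratio was -0.58 (-1.28 to 0.09), or -0.98 against the shift. The treated libraries lay between the 2 controls, with the inhibitor library under its control and the RB siRNA library over its own. GLB1L2, which encodes a protein related to beta-galactosidase, had 6.81 and 13.2 FPM with 12.6 and 5.75 in the controls. There too the inhibitor library was under its control and the RB siRNA library over its own. Over all shared summits the inhibitor exceeded its control at 616 of 887 and RB siRNA its own at 636 of 749.

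Of the remaining genes named on this side, LOC124900172 had 137 and 161 FPM with 197 and 65.2 in the controls. SRGAP2 had 24.1 and 30.1 FPM with 32.9 and 18.7. The summit shared by LOC139427322 and TOR1AIP1, a gene of the inner nuclear membrane, had 11.5 and 16.9 FPM with 7.73 and 10.1, and FHIP1A had 21.5 and 26.8 FPM with 20.7 and 21.3. At each of these 4 summits the RB siRNA level was above the inhibitor level, whereas 526 of the 654 shared summits had the opposite order. The intervals of EGLN1, GLB1L2, MXD3, RAB22A, SRGAP2, FHIP1A and LOC139427322/TOR1AIP1 include a log2 ratio of 0, so these 7 differ from the shift and not from an equal level in FPM.

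**Figure D4:**
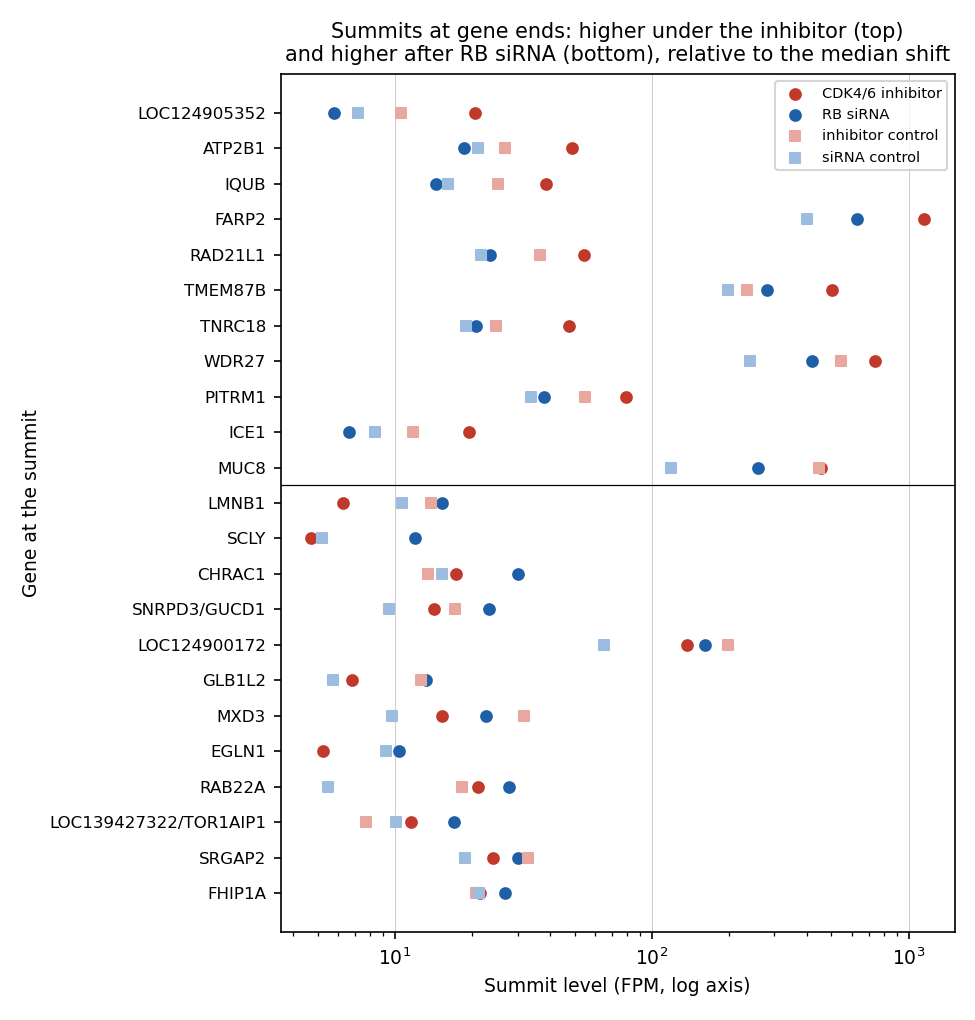
Levels in the 4 libraries (x axis, FPM, log scale) at the named gene-end summits farthest from the shift (y axis), with 1 point per library that listed the summit. The inhibitor control has no point at EGLN1, SCLY and FARP2. At ATP2B1 and IQUB the inhibitor point lies to the right of the other 3, and at LMNB1 it lies to the left of them.

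Over 17 gene lists with 431 genes, 32 genes (7.42%) had a shared summit at an end, at 29 distinct summits, and of all 20037 protein-coding genes 517 (2.58%) had one. None of the 29 was higher under the inhibitor and 4 (13.8%) were higher after RB siRNA, beside 8.88% and 6.54% of all 428 gene-end summits. The median against the shift was -0.21 over the 29 and -0.0080 over the 428. The lists were written with earlier results of these data known, so the choice of genes can itself shape these shares and this median. Those 4 were LMNB1 in the cohesin, condensin and lamin list (1 of 4 summits), MXD3 in the MYC, MAX and MXD list (1 of 2), RAB22A in the endosome and small GTPase list (1 of 5) and SNRPD3 in the splicing list (1 of 3).

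The lists closest to the treatments held 1 gene with a shared summit. Of 38 E2F targets of G1/S and replication, ORC6, a subunit of the origin recognition complex, was the 1 with a shared summit, which it shares with VPS35. It had 17.8 and 16.1 FPM and 20.7 and 7.47 in the controls, within counting error of the shift between the treated libraries. The list of cyclins, CDKs, CDK inhibitors, RB and E2F families (29 genes) had 2 genes with a summit at an end under the inhibitor and 6 after RB siRNA but none shared, and the G2/M list (28 genes) had 2 and 1 and none shared. For comparison, 7.73% and 6.63% of all 20037 protein-coding genes had a summit in these libraries. Over all these genes the share with a shared summit was 2.58%, so counts of 1 and 0 in lists of this size are near the background. None of the prostate lineage, neuroendocrine or blood, endothelial and liver genes had a shared summit.

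No shared summit of the p53, immediate early, ETS, DNA repair, chromatin, chaperone or BMP lists lay beyond counting error. Of 26 p53 targets, the shared summits were those of RRM2B, a ribonucleotide reductase subunit (57.6 and 45.4 FPM), PPM1D, a phosphatase that turns p53 signalling down (14.1 and 13.2 FPM) and TP53I3 (72.8 and 43.3 FPM, a summit shared with SF3B6 and FAM228B). The immediate early genes EGR1 and DUSP1 had 27.8 and 21.9 FPM and 10.5 and 14.03 FPM. DUSP1 was the 1 of these 5 with the larger level after RB siRNA, -0.83 against the shift, and its interval just reached the shift. Of the ETS list, ELF2 had 37.2 and 32.6 FPM and the WBP4/ELF1 summit 7.33 and 7.84 FPM. DNA repair genes RAD54L and BARD1, chromatin genes KMT2A, CBX8 and RYBP, chaperone genes HSPA8, HSP90B1 and the HSPD1/HSPE1 pair, and the BMP target ID2 lay between -0.27 and 0.48 against the shift. The other members of lists with a called gene were also within counting error: the insulator gene CTCF (39.3 and 34.3 FPM), the nuclear envelope gene EMD (83.3 and 54.9), LMF2/NCAPH2 (161 and 134), RAB5B (41.4 and 31.8), RAB11B (27.8 and 25.998), WDR91 (18.9 and 9.49), the MAX partner gene MXD1 (30.9 and 22.7) and CBX5/HNRNPA1 (13.6 and 14.03).

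Whether the direct difference follows the difference of the controls was read at 421 summits found in all 4 libraries, 286 of them at gene ends. There the treated libraries differed at 96 (22.8%), the controls at 112 (26.6%). Of the summits that differed between the treated libraries, 30 differed in the same direction between the controls (31.2% of the 96 and 26.8% of the 112), 14 differed in the opposite direction and 52 had controls within counting error. At gene ends 49 of 286 summits (17.1%) differed between the treated libraries and 58 (20.3%) between the controls. The 49 fell into these classes with 12, 6 and 31 summits. Across the 421 summits the direct and control log2 ratios had Pearson's r = 0.06 and Spearman's rho = 0.10, a description over summits that share the same 4 libraries and their depth. The spread of the direct ratio was 0.48 (SD, log2) where counting alone would give 0.34, and that of the control ratio was 0.53 where counting would give 0.32. At summits of 20 FPM or more, 29 of the 70 that differed between the treated libraries differed in the same direction between the controls, and under 20 FPM 1 of 26 did.

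**Figure D5:**
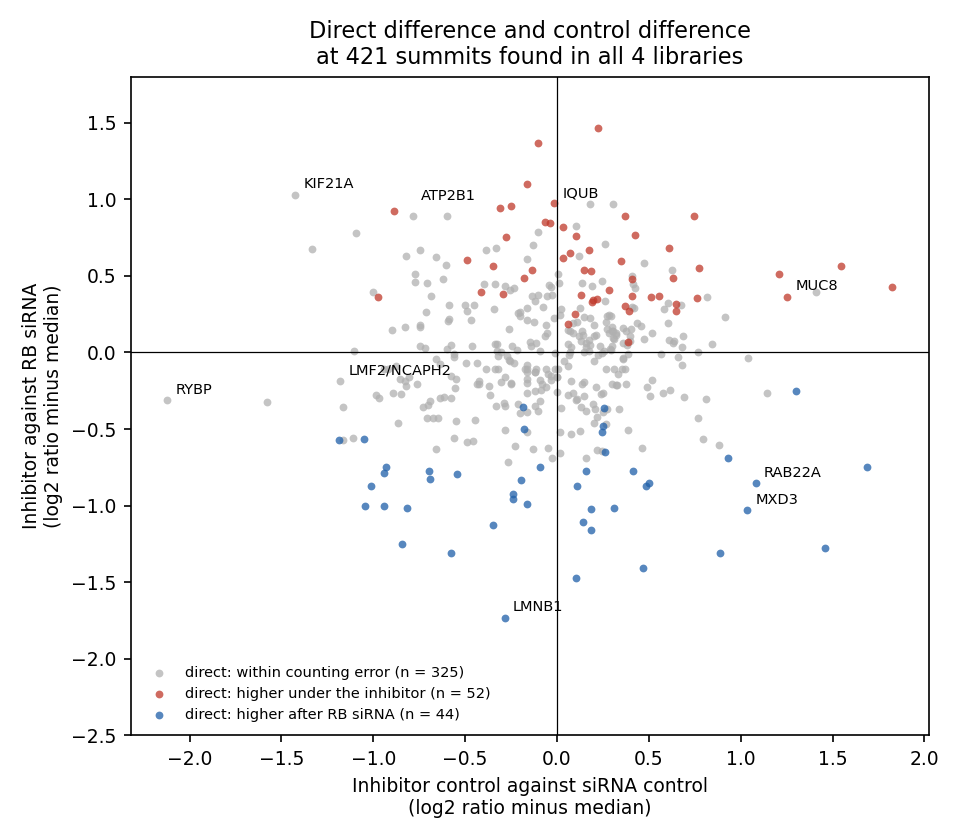
Log2 ratio of inhibitor to RB siRNA (y axis) against the log2 ratio of their controls (x axis), each minus its median, at the 421 summits found in all 4 libraries. Colours mark the direct call, and red and blue points lie on both sides of the vertical line, with 30 in the same direction as the controls beyond counting error and 14 in the opposite direction.

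Subtracting the control difference gives the change against own control under the inhibitor minus that after RB siRNA. The median of this difference of differences was -0.22, and it lay beyond counting error of that median at 98 of 421 summits (23.3%), 52 above and 46 below. At gene ends these were 53 of 286 (18.5%). Against their own controls the inhibitor differed at 20.2% and RB siRNA at 14.7% of these summits. ATP2B1 (1.26 over the median), TNRC18 (1.04), ICE1 (1.28), LOC124905352 (1.49), TMEM87B (0.82), RAD21L1 (0.67) and PITRM1 (0.60) were above beyond counting error, and so was IQUB (1.00). These genes were chosen for the direct ratio, which is part of this measure. MXD3 (-2.05), RAB22A (-1.92), GLB1L2 (-1.86), LOC124900172 (-1.61), LMNB1 (-1.44), SNRPD3/GUCD1 (-1.33) and SRGAP2 (-0.92) were below. CIMAP1D (-0.30), BRD3OS (-0.39), MUC8 (-0.88) and CASP9 (-0.32) were above the shift in the direct ratio and below the median here. CHRAC1, FHIP1A, LOC139427322/TOR1AIP1 and WDR27 were within counting error here, with -0.39, -0.06, 0.05 and -0.14. RYBP, a Polycomb protein gene, had 6.81 and 6.19 FPM in the treated libraries and 3.66 and 10.1 in the controls, 1.82 over the median, and LMF2/NCAPH2, the second a condensin II subunit gene, had 161 and 134 FPM and 82.2 and 118 in the controls, 1.01 over it.

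Away from gene ends the log2 ratios ranged from -1.51 to 1.94 against the shift. The positions named here were chosen after their values were seen, the first 2 for the interval farthest from the shift in each direction. On chromosome 22 at position 47379286 the inhibitor library had 76.5 FPM and the RB siRNA library 20.2 (log2 ratio 1.92, 1.44 to 2.42). On chromosome 20 at position 63135004 the levels were 32.5 and 59.0 FPM (-0.86, -1.32 to -0.42). Inside RNA45SN3 and RNA45SN1, copies of the ribosomal RNA precursor gene on chromosome 21, the levels were 877 and 1109 FPM and 698 and 933 FPM, higher after RB siRNA at both. Inside RNA45SN2, another copy, they were 1921 and 1091 FPM, higher under the inhibitor, so the copies did not go one way. Reads of these near-identical copies cannot be assigned to one of them with certainty. Of the 86 summits higher under the inhibitor 44.2% were at gene ends, of the 56 higher after RB siRNA 50%, and of the 512 within counting error 70.7%.

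Summits without a partner say little about absence, since an interval lists 1 summit and hides lower ones inside it. Of 1449 inhibitor summits of at least 5 FPM, 674 (46.5%) had a partner after RB siRNA and 490 (33.8%, 31.4 to 36.3) lay in an interval whose own summit was as high or higher. Of 1164 RB siRNA summits, 619 (53.2%) had a partner under the inhibitor and 407 (35.0%, 32.2 to 37.8) were hidden in this way. The hidden shares were alike on both sides here, whereas against their own controls they were 12.6% (inhibitor) and 8.25% (RB siRNA) of the treated summits and 51.9% and 53.8% of the control summits. By gene, 1549 had a summit at an end under the inhibitor and 1329 after RB siRNA, and 630 had one in both (40.7% and 47.4% of these lists).

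A few unpaired summits stayed higher even against the upper bound that the covering interval allows, 9 under the inhibitor (0.621%) and 17 after RB siRNA (1.46%). At gene ends the 4 of the inhibitor were SCYL2, a clathrin-vesicle protein gene, with 17.8 against at most 5.36 FPM, RNPC3, a minor-spliceosome protein gene, with 21.0 against at most 8.67, the kinase gene TAOK3 with 19.4 against at most 7.84, and TTLL12 with 199 against 113 at a summit 277 bp away. The 6 of RB siRNA were APOLD1, an early-response gene of endothelium, with 16.5 against at most 5.24 FPM, CCN1, a matricellular protein gene, with 13.6 against at most 5.76, the zinc exporter gene SLC30A1 with 16.5 against at most 11.0, the inhibitory SMAD gene SMAD6 with 35.9 against at most 29.9, the ribosomal protein gene RPL32 with 19.4 against at most 14.7, and CDK4, the target of the inhibitor, with 35.9 against at most 32.5. For SLC30A1, SMAD6, RPL32 and CDK4 the call holds against the shift, while their interval includes a log2 ratio of 0. The controls had 42.3 (inhibitor) and 30.2 FPM (siRNA) at CDK4.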

How the data were processed

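Data were 4 interval lists of 22RV1 cells, 1 per library. Per the submitters' processing notes, reads were processed with bcl2fastq 2.17, Trimmomatic 0.33 and Bowtie2 (given as version 2) on hg38, and intervals came from MACS2 2.1.0. Their settings and order are not given in the sources used here. The deposited lists have 10 columns for the inhibitor experiment and 9, without a name, for the siRNA experiment. The score, as deposited, equals 10 times the −log10 p without its decimals. Fold, a ratio of treatment over background, −log10 p and −log10 q are the authors' deposited values at each summit.

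Treatment fragments at each summit were solved from fold and p (pseudocount of 1, Poisson upper tail). At least 99.96% of solved numbers per library were whole within 0.05, and where the genome-wide background applied, 100% of 3180, 2566, 9158 and 9907 (inhibitor, RB siRNA, inhibitor control, siRNA control). A large window of 10000 bp and a genome size of 2.7 Gb were assumed, on which totals depend. Ratios have exact conditional 95% intervals, shares exact binomial (Clopper-Pearson) ones. The difference of differences has a log-scale interval from 4 counts. Scripts were tested on simulated data. PCR copies may remain among fragments, and intervals cover counting error only. The distances just inside and outside the pairing limit were 250 and 251 bp, and the levels 5.03 and 4.92 FPM, with 112 pairs under the minimum.

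Genes came from RefSeq on GRCh38, and the start table held no entry for some genes, including those of chromosome 8. Start distances, shares at gene starts, motif windows and printed promoters therefore leave out chromosome 8. Of its 23 shared summits, 20 lay at gene ends, RRM2B and CHRAC1 among them. Gene-end summits were named by rule: the 12 in each direction whose interval lay farthest from the shift, the 8 highest, list members beyond counting error with up to 3 others per list, up to 6 unpaired per library, and 17 fixed genes. KIF21A and PHF1/KIFC1 and the positions away from gene ends were named after their values were seen. The members and lists were chosen with earlier results of these data known. Python 3.11.15, numpy 2.4.6, scipy 1.17.1, pandas 2.3.3 and matplotlib 3.10.9 were used. The result of 1 gene named by this rule is not reported here.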

Additional observations from a re-analysis of the deposited data

Results flagged for a closer look

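At 7 gene-end summits the inhibitor and RB siRNA moved in opposite directions from their own controls, each against the median of its contrast and beyond counting error. The difference between the treatments was not tested, with 1 library per group. Over all 421 summits found in the 4 libraries there were 15 such summits, and 10 that moved in the same direction (3 at gene ends). Levels are given as inhibitor, its control, RB siRNA and its control, and the value is the difference of differences in log2 against its median.

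KIF21A, a kinesin gene, had 11.5, 4.07, 4.13 and 6.90 FPM and a value of 2.47, up under the inhibitor and down after RB siRNA. ATP2B1 had 48.7, 26.8, 18.6 and 21.0 FPM and a value of 1.26 in the same directions. LMF2/NCAPH2 had 161, 82.2, 134 and 118 FPM and a value of 1.01, also in these directions against the medians. In FPM its RB siRNA level was above its control.

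MXD3 had 15.2, 31.7, 22.7 and 9.77 FPM and a value of -2.05, down under the inhibitor and up after RB siRNA. LOC124900172 had 137, 197, 161 and 65.2 FPM and a value of -1.61. MUC8 had 457, 449, 260 and 119 FPM and a value of -0.88, with an inhibitor level below its control against the median only and not in FPM. PHF1/KIFC1, the start of the Polycomb-associated gene PHF1 and the kinesin gene KIFC1, had 125, 134, 103 and 59.2 FPM and a value of -0.68. These last 3 moved in the same directions as MXD3. Of the 7, 2 start from a level at or under 10 FPM in some library (KIF21A and MXD3), where few fragments carry the value.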

How the results depend on the processing

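No paired analysis was possible because each group holds 1 library. At a minimum of 20 FPM, 31.6% of the direct pairs, 34.9% of the control pairs and 34.4% of the differences of differences lay beyond counting error (medians 0.49, 0.78 and -0.31). Intervals with a deposited −log10 q of at least 2 gave 50% and 54.3% (direct, controls; medians 0.77 and 0.84), a fold of at least 2 gave 58.1% and 46.9% (0.72 and 0.80), and testing against a log2 ratio of 0 gave 32.0% and 42.8%. Pairing by interval overlap gave 37.1% (median 0.29) for the direct pairs, no minimum gave 14.4% (0.50) for the controls, and leaving out pairs of 100 FPM or more, added after seeing the data, gave 16.7% for the direct pairs. Scaled to summits found in all 4 libraries, the medians changed sign to -0.093 (direct), -0.16 (controls) and 0.027 (difference of differences) with the same calls. At 20 FPM, 16.8% of inhibitor and 23.6% of RB siRNA summits were hidden, and 0.824% of the latter were higher beyond counting error. Gene ends within 500 bp held 59.6% of shared summits and 65.2% of those within counting error, within 2500 bp 70.3% of shared summits and 55.6% of those beyond it, and gene starts alone, added after seeing the data, 54.6%, 36.6% beyond and 59.6% within. CIMAP1D changed sign to -0.24 with the q and -0.20 with the fold minimum, and against a log2 ratio of 0 LMF2/NCAPH2 was at 0.27 and LOC124905351 at 0.20. Of the single-gene values, 378 kept their call, 19 lost it, 7 gained one and 4 changed sign. The cause of these changes was not tested, except that the higher minimums leave fewer summits with more fragments each. The scaling to summits found in all 4 libraries gave 52 of the 378, and it cannot change a call because it moves every ratio alike. Summits that a setting dropped are not in these counts. Pairing within 100 bp kept 39 of the 52 named summits, all with the same call. It dropped LMNB1, EGLN1, GLB1L2, FHIP1A, PITRM1 and LOC124905352, among others.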
